A study of Mus musculus with 2 samples.

Results

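The Mir302 and Mir290 clusters are 2 groups of microRNA (miRNA) hairpin genes known from pluripotent cells, and they are described here in the neural tube of mouse embryos. The members were the 10 genes Mir302a, Mir302b, Mir302c, Mir302d and Mir367 of the first cluster and Mir290a, Mir291a, Mir292, Mir294 and Mir295 of the second, out of 1973 miRNA genes with a row in the deposited tables. They were picked by name, through their Ensembl identifiers and GENCODE symbols, and all 10 had a row. Small RNA sequencing was done on neural tube of strain B6NCrl at embryonic day 11.5 (E11.5), from healthy embryos of both sexes. The series is 1 group of 2 libraries, each made from its own pool of embryos, 109 in replicate 1 and 88 in replicate 2, with RNA under 30 nt selected. Both biosamples carry the same donor identifier in the labels. No treatment, genotype or second stage was part of the series, so the comparisons are between the 2 clusters, between hairpins, and between the 2 libraries.

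A miRNA is cut from a hairpin of a longer transcript and guides the silencing of mRNAs that pair with its seed, bases 2 to 8 counted from its 5′ end. Genes of a cluster lie close together and are made from a shared primary transcript. The Mir290 cluster is known from embryonic stem cells, the preimplantation embryo and germ cells. The Mir302 cluster is known from the epiblast and from human pluripotent cells, and mouse embryos that lack it fail to close the neural tube. Much of both clusters shares a seed and acts on cell cycle inhibitors and on other targets in common.

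The mature miRNAs of the members are shown because the 2 clusters meet in their 3p seeds and part in their 5p seeds. RefSeq sequences (GRCm38.p6) were matched by gene symbol, which gave 18 mature miRNAs over all 10 members. miR-302a-3p and miR-292a-3p were not analysed here, so every grouping and sum by 3p seed leaves out Mir302a and Mir292. As background, miR-302a-3p is known as a member of the AAGUGCU family. Capitals mark bases 2 to 8. Of the 18, these 5 miRNAs carry the seed AAGUGCU, 2 of them from the Mir302 cluster and 3 from the Mir290 cluster.
miR-302b-3p: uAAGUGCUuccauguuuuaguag
miR-302d-3p: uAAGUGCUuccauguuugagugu
miR-291a-3p: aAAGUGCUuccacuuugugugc
miR-294-3p: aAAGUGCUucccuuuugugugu
miR-295-3p: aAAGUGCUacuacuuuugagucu

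Among the other 3p miRNAs of the 18, a pair carry near forms of that seed. The listed start of miR-302c-3p lies 1 base later in the common stretch, and miR-290a-3p ends its seed in a different base.
miR-302c-3p: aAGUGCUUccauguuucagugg
miR-290a-3p: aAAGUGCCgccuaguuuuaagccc

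The last member of the Mir302 cluster, miR-367-3p, has an unrelated seed that it shares with the miR-25 and miR-92 family. It is shown here beside miR-92b-3p, from the family gene with the most assigned counts.
miR-367-3p: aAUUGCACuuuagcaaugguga
miR-92b-3p: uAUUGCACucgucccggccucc

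The 5p arms differ between the clusters. Their seeds were CUUUAAC in miR-302b-5p, miR-302c-5p and miR-302d-5p, and CUCAAAC in miR-290a-5p and miR-292a-5p.
miR-302d-5p: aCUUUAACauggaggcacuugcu
miR-302a-5p: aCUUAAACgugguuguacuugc
miR-292a-5p: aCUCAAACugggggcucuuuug
miR-294-5p: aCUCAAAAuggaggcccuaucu

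The deposited counts are per hairpin, so the arms of a hairpin cannot be told apart in the values that follow. Reads that mapped to several places were assigned to no gene, which matters where hairpins share sequence. miR-302b-3p and miR-302d-3p share their first 17 nt, and the longest run that Mir302a and Mir302b share as hairpins is 20 nt. Mir291a shares a run of 20 nt with its neighbour Mir291b. The longest run that each of the other 7 members shares with any hairpin of the GENCODE M21 annotation is between 10 and 17 nt, the longest being that of Mir302d.

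Depth was 3708662 counts on the own strand of miRNA genes in replicate 1 and 4055883 in replicate 2, and levels are given as counts per 1000000 of these (CPM). A count of 0 allows up to 3 counts, or 0.809 CPM in replicate 1 and 0.740 CPM in replicate 2. All intervals are 95% intervals for counting error alone, since reads without molecular identifiers need not be independent molecules. Reads that mapped to several places were 25.2% and 27.3% of all reads. The neural marker list of 9 genes, 8 with a row, summed to 8501 and 7385 CPM, with no gene at 0. Most of this sum was Mir92b, at a mean of 4979 CPM of the 7943 CPM mean for the list. The single endothelial marker Mir126a stood at 24945 and 22302 CPM and the let-7 list of 6 measured genes at 20167 and 15756 CPM. Skeletal muscle genes (3 measured) summed to 1398 and 793 CPM and the erythroid pair to 520 and 368 CPM. Nearly all of the muscle sum was Mir206, at a mean of 1060 CPM of the 1096 CPM mean for the list. Mir451a likewise made up 418 CPM of the 444 CPM mean for the erythroid pair. A list of 8 X-linked genes known from testis and germ cells had 12 and 28 counts, with 2 genes at 0. In a bulk sample, fewer cells that express a gene and less RNA per cell cannot be told apart.

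The Mir302 cluster was present at a moderate level and the Mir290 cluster at a low one, with Mir290a and Mir295 close to the limit of detection. The 5 Mir302 members summed to 5910 counts in replicate 1 and 6734 in replicate 2, or 1594 CPM (Wilson interval 1553 to 1635) and 1660 CPM (1621 to 1700). Their mean was 1627 ± 47.2 CPM (SD, n = 2). The 5 Mir290 members summed to 193 and 103 counts, or 52.0 CPM (45.2 to 59.9) and 25.4 CPM (20.9 to 30.8), with a mean of 38.7 ± 18.8 CPM (SD, n = 2). The lower Mir302 sum lay far above the higher Mir290 sum, so the cluster sums did not overlap in these libraries. Single hairpins did, since Mir367 had fewer counts than Mir294 in both libraries.

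Inside a library the 2 clusters can be set against each other without any scaling. Mir302 counts exceeded Mir290 counts 30.6-fold in replicate 1 (exact Clopper-Pearson interval 26.5 to 35.5) and 65.4-fold in replicate 2 (53.8 to 80.2). The direction was the same in both libraries, while the size was not, since the ratio was 2.14 times as large in replicate 2 (interval 1.68 to 2.72 on the log odds scale). With 2 libraries a two-sided permutation test cannot give a p below 0.5, so this ratio rests on both libraries giving its direction. Without the members that share 20 nt with another hairpin, Mir302a and Mir302b on one side and Mir291a on the other, the mean ratio was 19.4 in place of 48.0. Counting all 7 plus-strand genes of the Mir290 cluster, the ratio was 19.3 (17.2 to 21.7) and 32.8 (28.6 to 37.9).

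**Figure D1:**
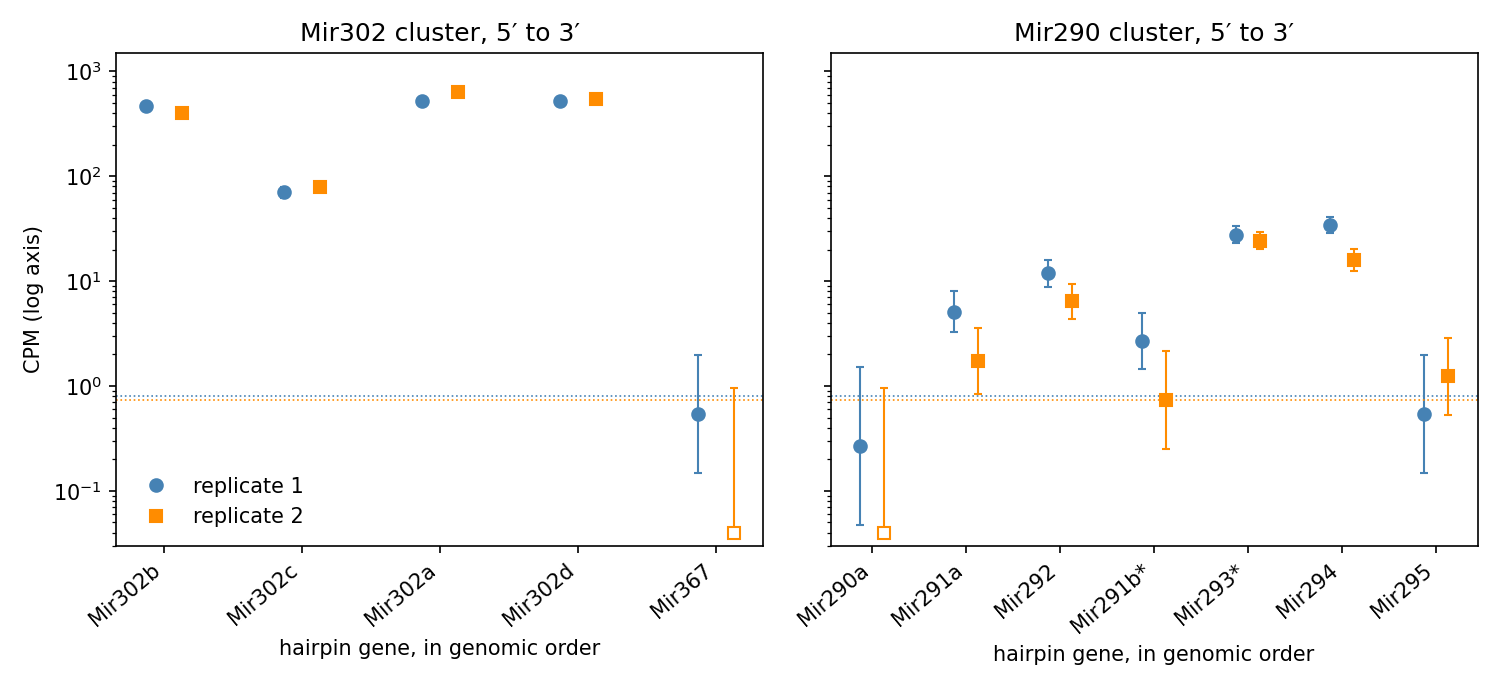
Level of each hairpin gene in CPM on a log axis, in genomic order within the Mir302 cluster and the Mir290 cluster; points are single libraries, bars are 95% Wilson intervals, dotted lines mark the level of 3 counts, open symbols at the lower edge are counts of 0, and asterisks mark cluster genes that are not among the 10 members. Mir302a, Mir302b and Mir302d lie between 404 and 636 CPM, Mir294 leads the Mir290 members at 34.2 and 16.0 CPM, and Mir367 and Mir290a lie at or below the dotted lines.

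The Mir302 cluster spans 580 bp of chromosome 3, from 127545228 to 127545807 on the plus strand (GENCODE M21, GRCm38, also called mm10). All 5 hairpins lie in an intron of Larp7, which encodes a protein that binds the 7SK RNA and is transcribed from the opposite strand. Opposite-strand counts were 0 for all 10 members in both libraries. The order of the hairpins along the plus strand is Mir302b, Mir302c, Mir302a, Mir302d and Mir367.

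Mir302a (ENSMUSG00000065552.1, 127545496 to 127545564) had the most counts, 1958 in replicate 1 and 2578 in replicate 2, or 528 and 636 CPM. Its mean of 582 ± 76.1 CPM (SD, n = 2) put it at rank 114 of the 1973 genes. Next to it in rank stood Mir374b (596 ± 253 CPM) and Mir429 (587 ± 67.4 CPM) above, and Mir16-2 (566 ± 52.2 CPM) and Mir503 (558 ± 184 CPM) below, none of which differed from it beyond the SDs. Scaled by library totals, Mir302a was the 1 Mir302 member called higher in replicate 2, 1.20-fold (interval 1.13 to 1.28; exact binomial test, adjusted p = 2.1e-09).

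Mir302d (ENSMUSG00000065447.1, 127545624 to 127545689) had 1938 and 2198 counts, or 523 and 542 CPM. These 2 values were the closest of any abundant member, with a mean of 532 ± 13.7 CPM and rank 119. The libraries did not differ in it past the threshold (1.04-fold higher in replicate 2, interval 0.975 to 1.10; exact binomial adjusted p = 0.36).

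Mir302b (ENSMUSG00000076252.1, 127545228 to 127545301) had 1750 and 1640 counts, or 472 and 404 CPM, with a mean of 438 ± 47.7 CPM and rank 127. It went the other way from Mir302a, 1.17-fold higher in replicate 1 (interval 1.09 to 1.25; exact binomial adjusted p = 2.08e-05). That direction holds for scaling by library totals and turns under TMM (trimmed mean of M values), where the log2 ratio of replicate 1 over replicate 2 was -0.062 and the adjusted p of the exact binomial test 0.36. The genes Mir302a and Mir302b share 20 nt, and the part of reads held back as mapping to several places was not tested.

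Mir302c (ENSMUSG00000065482.1, 127545363 to 127545430) lies between Mir302b and Mir302a and had 262 and 318 counts, or 70.6 and 78.4 CPM. Its mean of 74.5 ± 5.49 CPM put it at rank 223. Although its neighbours on both sides are cut from the same stretch, Mir302a counts exceeded those of Mir302c 7.47-fold in replicate 1 (exact interval 6.57 to 8.53) and 8.11-fold in replicate 2 (7.21 to 9.14). These intervals overlap, and the ratio changed between libraries by 1.08 (0.912 to 1.29).

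Mir367 (ENSMUSG00000065413.2, 127545733 to 127545807), the last hairpin of the cluster, had 2 counts in replicate 1 and 0 in replicate 2. Both are at or under the level of 3 counts, so no fold against its neighbours is given. The hairpin just before it, Mir302d, starts 109 bp upstream and held 1938 and 2198 counts. The longest run that Mir367 shares with another hairpin is 11 nt. How well the library method captures miR-367 was not tested.

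The order of the Mir302 hairpins was Mir302a, Mir302d, Mir302b, Mir302c and Mir367. Mir302a and Mir302d did not differ in replicate 1, where their ratio was 1.01 (exact interval 0.948 to 1.08), and did in replicate 2, at 1.17 (1.11 to 1.24). Mir302d exceeded Mir302b by 1.11 (1.04 to 1.18) and 1.34 (1.26 to 1.43). As shares of the cluster, Mir302a took 33.1% (31.9 to 34.3) and 38.3% (37.1 to 39.5), and Mir302b took 29.6% (28.4 to 30.8) and 24.4% (23.3 to 25.4). The intervals of both genes were apart between the libraries, while Mir302d kept 32.8% (31.6 to 34.0) and 32.6% (31.5 to 33.8) and Mir302c 4.43% (3.92 to 4.99) and 4.72% (4.23 to 5.26). The ratio of Mir302a to Mir302b was 1.12 in replicate 1 and 1.57 in replicate 2, a change of 1.40 (1.28 to 1.54) that no scaling of the libraries can move.

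**Figure D2:**
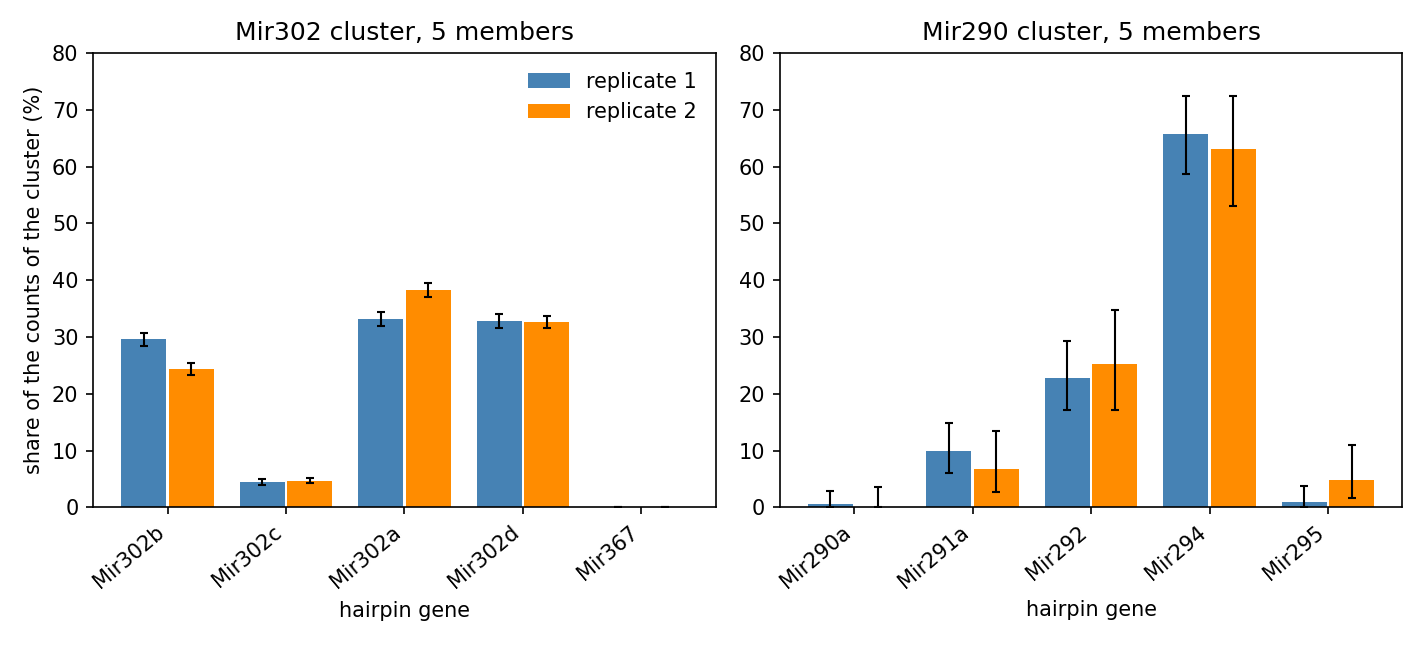
Share of each hairpin gene in the summed counts of the 5 members of its cluster, in percent. Bars start from 0 and error bars are exact 95% Clopper-Pearson intervals. The left panel holds the 5 Mir302 members and the right panel the 5 Mir290 members. Mir302a stands at 33.1% in replicate 1 and 38.3% in replicate 2 and Mir302b at 29.6% and 24.4%. Among the 5 Mir290 members all intervals of a gene overlap between libraries. Mir293 and Mir291b are not part of these shares.

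The Mir290 cluster spans 2216 bp of chromosome 7, from 3218626 to 3220841 on the plus strand. GENCODE M21 places Mir291a, Mir292, Mir294 and Mir295 within an annotated exon of Nlrp12, an innate immune receptor gene of the opposite strand, and Mir290a beyond the end of that gene. Mir290b and Mir292b, annotated on the minus strand across Mir290a and Mir292, were not analysed here as genes. The opposite-strand counts of Mir290a and Mir292, where reads of those hairpins would fall, were 0 in both libraries.

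Mir294 (ENSMUSG00000077903.1, 3220641 to 3220724), whose 3p miRNA has the shared seed AAGUGCU, led the Mir290 members with 127 counts in replicate 1 and 65 in replicate 2. This is 34.2 CPM (Wilson interval 28.8 to 40.7) and 16.0 CPM (12.6 to 20.4), with a mean of 25.1 ± 12.9 CPM and rank 275. The 2 intervals do not overlap, and Mir294 was 2.14-fold higher in replicate 1 (interval 1.57 to 2.93; exact binomial adjusted p = 1.06e-06). Under TMM scaling it was still higher there, with a log2 ratio of 0.81 (exact binomial adjusted p = 0.000712). Among the 301 genes with at least 100 summed counts, 8 had a larger ratio toward replicate 1. Mir302a exceeded it 15.4-fold in replicate 1 (12.9 to 18.6) and 39.7-fold in replicate 2 (31.0 to 51.5).

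Mir292 (ENSMUSG00000078041.1, 3219189 to 3219270), the third of the 5 members along the cluster, had 44 and 26 counts, or 11.9 CPM (8.84 to 15.9) and 6.41 CPM (4.37 to 9.39), and rank 316. It was 1.85-fold higher in replicate 1 (interval 1.11 to 3.13; exact binomial adjusted p = 0.0237). Mir291a (ENSMUSG00000078008.1, 3218919 to 3219000), which also carries AAGUGCU, had 19 and 7 counts, or 5.12 CPM (3.3 to 8.0) and 1.73 CPM (0.836 to 3.56), and rank 364. It was 2.97-fold higher in replicate 1 (interval 1.19 to 8.36; exact binomial adjusted p = 0.0211). Both calls were lost under TMM scaling, at exact binomial adjusted p = 0.194 for Mir292 and 0.109 for Mir291a, with the direction kept.

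The 2 members at the ends of the cluster were barely detected. Mir290a (ENSMUSG00000077815.1, 3218626 to 3218708), the first hairpin, had 1 count in replicate 1 and 0 in replicate 2, a level it shared with 38 other genes at rank 643. Mir1a-1, Mir202, Mir344i and Mir378b are among the genes at that level. Mir295 (ENSMUSG00000077886.1, 3220773 to 3220841), the last hairpin, had 2 and 5 counts, or 0.539 CPM (0.148 to 1.97) and 1.23 CPM (0.527 to 2.89), and was the Mir290 member with more counts in replicate 2. These intervals overlap, and at this depth no difference was detectable. Mir294, which starts 132 bp upstream of Mir295, held 127 and 65 counts.

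Among the 5 Mir290 members the order was Mir294, Mir292, Mir291a, Mir295 and Mir290a. Mir294 exceeded Mir292 by 2.89 in replicate 1 (exact interval 2.03 to 4.17) and 2.50 in replicate 2 (1.56 to 4.11). This pair was apart in both libraries. Mir292 exceeded Mir291a by 2.32 (1.32 to 4.20) and 3.71 (1.57 to 10.1), also in both. Mir291a and Mir295 did not differ in replicate 2, where their ratio was 1.40 (0.382 to 5.59). Of the counts of the 5 members, Mir294 took 65.8% (58.6 to 72.5) and 63.1% (53.0 to 72.4). Mir292 took 22.8% (17.1 to 29.4) and 25.2% (17.2 to 34.8) of them.

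A further pair of hairpins lies in the Mir290 cluster outside the 10 members. Mir293 (3220343 to 3220422), just upstream of Mir294, had 103 and 99 counts, or 27.8 CPM (22.9 to 33.7) and 24.4 CPM (20.1 to 29.7), a mean of 26.1 ± 2.38 CPM. It did not differ between the libraries past the threshold (1.14-fold higher in replicate 1, interval 0.855 to 1.51; exact binomial adjusted p = 0.493). Mir291b (3219482 to 3219560) had 10 and 3 counts. With Mir293 and Mir291b counted in, Mir293 took 33.7% (28.4 to 39.3) and 48.3% (41.3 to 55.4) of the counts of the 7 plus-strand genes. Mir294 then took 41.5% (35.9 to 47.2) and 31.7% (25.4 to 38.6). The ratio of Mir293 to Mir294 was 0.811 in replicate 1 (exact interval 0.619 to 1.06) and 1.52 in replicate 2 (1.10 to 2.12), a change of 1.88 (1.25 to 2.82), so 2 adjacent hairpins of the cluster did not keep their ratio between the libraries. The 3p miRNA of Mir293 lacks the shared seed of its neighbour and reads as follows.
miR-293-3p: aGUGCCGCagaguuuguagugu

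**Figure D3:**
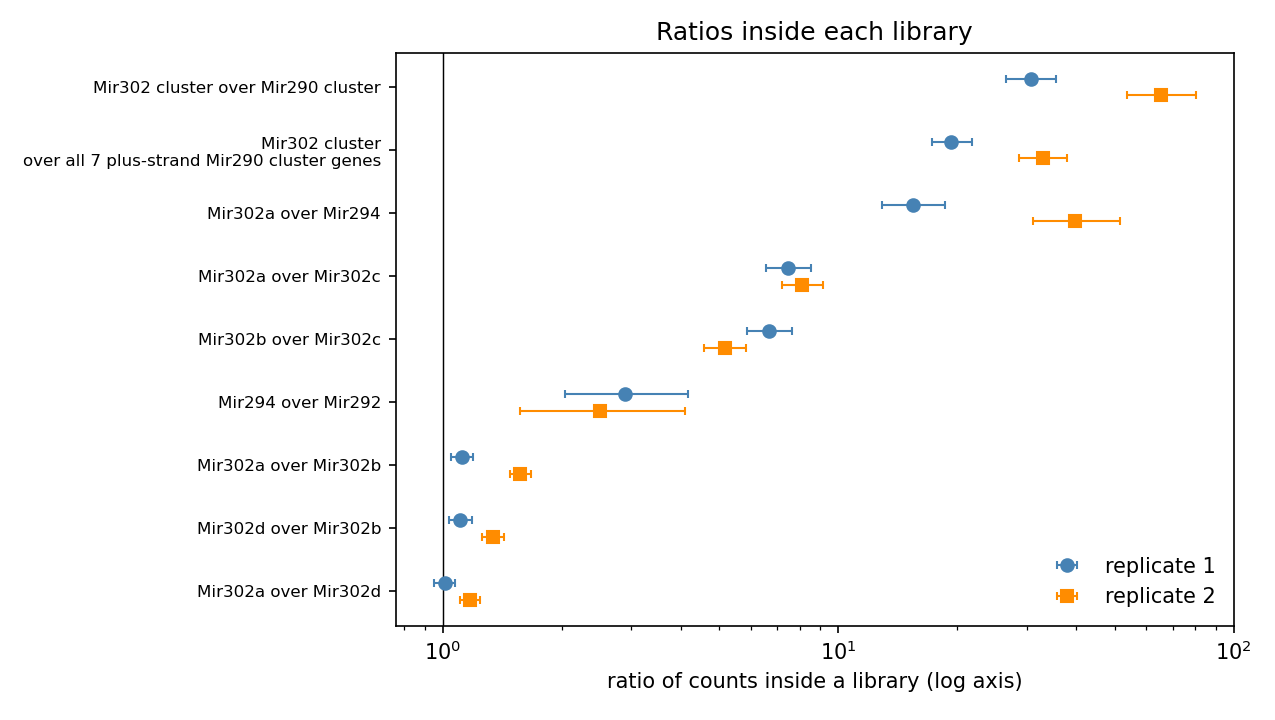
Ratios of counts inside each library on a log axis, with exact 95% Clopper-Pearson intervals and a vertical line at 1; each row is a ratio between clusters or between hairpins, and each symbol a library. The ratio of the Mir302 cluster to the Mir290 cluster is 30.6 in replicate 1 and 65.4 in replicate 2, while Mir302a over Mir302c and Mir294 over Mir292 overlap between the libraries.

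Between the libraries, the 4 tested Mir302 members lay below the median log2 ratio of all tested genes and the 3 tested Mir290 members above it. This does not hold for the whole Mir290 cluster, since Mir293, with 202 summed counts the most of any gene there, stood at 0.19, below the median, and Mir295 had more counts in replicate 2. Of the 10 members, 7 had the 10 summed counts needed for the exact binomial test, and Mir367, Mir290a and Mir295 did not. Among the 7, 4 were higher in replicate 1 (Mir302b, Mir291a, Mir292 and Mir294), 1 was higher in replicate 2 (Mir302a) and 2 did not pass (Mir302c and Mir302d). Over all 444 genes tested, 53.2% passed, 45.3% higher in replicate 1 and 7.88% higher in replicate 2, so calls toward replicate 1 were common. As log2 ratios of replicate 1 over replicate 2, the medians stood at -0.10 for the 4 Mir302 members and 1.09 for the 3 Mir290 members, beside 0.27 for all genes tested. Of the 301 genes with at least 100 summed counts, 237 had a ratio above 0, and 14 had a ratio lower than that of Mir302a.

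TMM scaling moved every log2 ratio by -0.28 and took the median of all tested genes to -0.02. With it, 40.1% of genes passed, 18.5% higher in replicate 1 and 21.6% higher in replicate 2. Mir302a, Mir302c and Mir302d were then higher in replicate 2 and Mir294 was higher in replicate 1, while Mir302b, Mir291a and Mir292 did not pass. The log2 ratios were -0.55 for Mir302a, -0.43 for Mir302c and -0.34 for Mir302d. The shift is the same for every gene, so places relative to the median gene cannot differ between the 2 scalings. Relative to that gene, Mir302a, Mir302c and Mir302d leaned to replicate 2 and the 3 tested Mir290 members to replicate 1. Mir293 stood at -0.099 under TMM, below the median. The test compares these 2 libraries and not conditions. Of the 6 marker lists, 5 (neural, endothelial, skeletal muscle, erythroid and let-7) had higher CPM in replicate 1 when scaled by library totals. The X-linked germ cell list had more counts in replicate 2. With library totals, 237 of the 301 genes with at least 100 summed counts also had a ratio above 0. The lists were not compared under TMM. The part of the marker lists in the difference of the 3 tested Mir290 members was not tested.

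**Figure D4:**
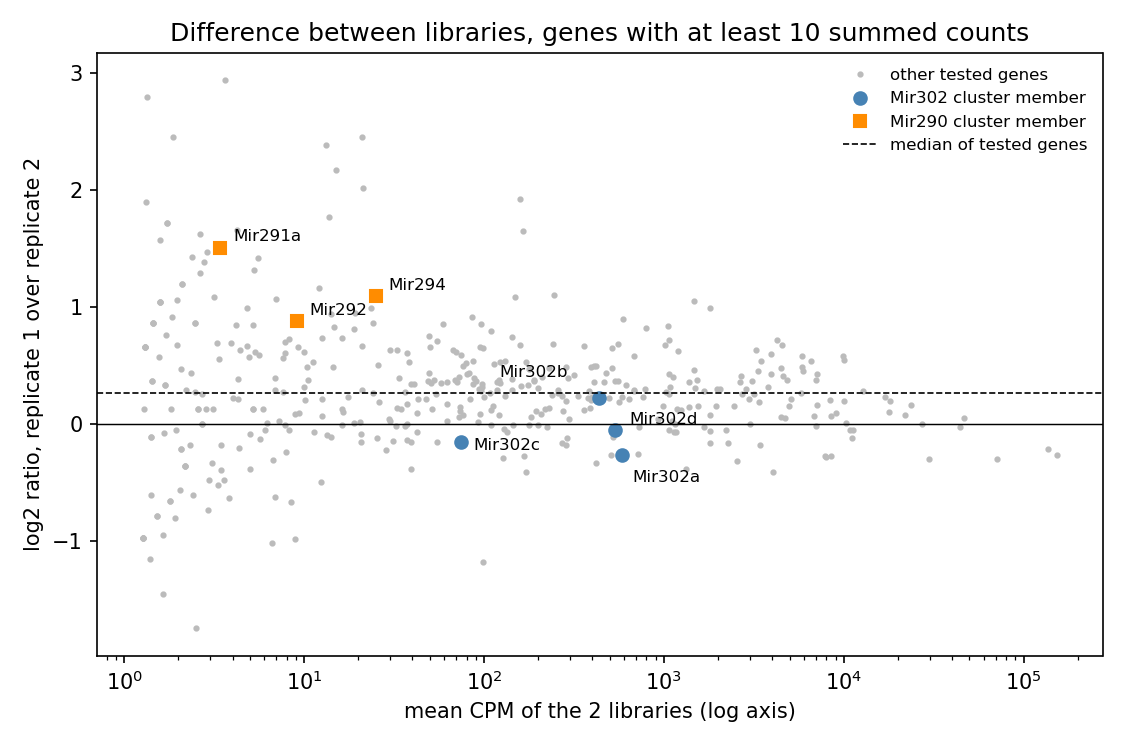
Log2 ratio of replicate 1 over replicate 2 against mean CPM (log axis) for the 444 genes with at least 10 summed counts; grey points are other genes, circles the 4 tested Mir302 members, squares the 3 tested Mir290 members, and the dashed line the median of all tested genes at 0.27. Mir291a, Mir294 and Mir292 lie above the dashed line at 1.51, 1.09 and 0.88, and Mir302a, Mir302c and Mir302d lie below 0.

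Genes that share a seed were summed to set the members beside them. They cover the 916 of the 1973 genes that had a mature sequence to search. Among these sequences, AAGUGCU was the seed of 5 mature miRNAs, all of them from the 2 clusters. The hairpin counts of these 5 genes summed to 1034 CPM in replicate 1 and 965 CPM in replicate 2, both arms included and Mir302a, at 528 and 636 CPM, left out. Reads of 5p arms in the sum carry other seeds, so it is neither a lower nor an upper limit for the seed family. Of this, Mir302b and Mir302d gave 994 and 946 CPM, and Mir294, Mir291a and Mir295 the small remainder. The seed AUUGCAC of miR-367-3p was held by 6 genes outside the clusters with a row used here, which summed to 13987 and 12215 CPM. Mir92b led them at 4979 ± 383 CPM, followed by Mir92-1 at 4455 ± 1038 CPM and Mir363 at 2267 ± 184 CPM, against 2 counts and 0 for Mir367. Mir92-1 and Mir92-2 list the same mature miR-92a-3p sequence, and reads that mapped to several places were assigned to no gene. Their counts, the family sum and the lead of Mir92b may depend on the reads left out, which was not tested.

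The letters AAGUGC stand at base 2 in the members with the shared seed and at base 3 in the miR-17 family, which drives proliferation, so that the 2 families are offset by 1 base. The match was searched on the mature strand from base 1 to base 4, in the same 916 genes, and genes with no mature sequence searched may hold it too. Among the genes searched outside the clusters it began at base 3 in 8 genes, led by Mir17, Mir20a, Mir93 and Mir106b, which summed to 86079 and 85483 CPM. It began at base 2 in 1 searched gene outside, Mir350, at 373 and 469 CPM. The match is a description of letters and says nothing of targets.
miR-17-5p: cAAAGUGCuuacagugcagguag
miR-93-5p: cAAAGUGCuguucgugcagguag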

How the data were processed

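Small RNA of 2 neural tube pools was analysed from raw read counts per miRNA gene, deposited for mm10 and annotation M4 per the descriptions deposited beside the tables. Which aligner, counter and trimming were used is not given in the sources used. Of 3 unnamed count columns, the second was read as own-strand counts, because the first equals the other 2 summed in every row (0 exceptions). Rows that name no gene (56.5% and 47.0% of reads) were left out. The number of per-sample columns not tied to a sample was 0.

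CPM used own-strand totals. Of 1973 genes, 1894 matched GENCODE M21 by identifier, with version suffixes ignored. A gene was tested if its counts in both libraries summed to 10 or more, as 444 did. Its split between the libraries was set against the library totals in an exact binomial test (two-sided), and p-values were adjusted over all 444 by Benjamini-Hochberg, with a threshold of 0.05. With 1 group, no model of conditions could be fitted. P-values measure counting error between these 2 libraries. Log2 ratios used a pseudocount of 0.5 counts. The test was tried on simulated data. Changes of a ratio between libraries carry Woolf intervals. TMM factors were computed in edgeR 4.0.16, and the size factors are those of DESeq2 1.42.0 (R 4.3.3), the rest from Python 3.11.15 and scipy 1.17.1.

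Named genes were the members, other genes of the Mir290 cluster, genes sharing a member's seed, and the 2 ranks above and below the highest and lowest member. Mir350 and the genes named for AAGUGC were added after their values were seen. The members, lists and tests were chosen with earlier results of these data known. Alternatives covered scaling, count minimum, strand, shared sequence, cluster membership, pseudocount and leaving out a library.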

Additional observations from a re-analysis of the deposited data

How the results depend on the processing

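Scaling set the sizes of the clusters and cannot change their order inside a library, since it divides both by the same number. With the total taken without the 10 most abundant genes, the Mir302 cluster stood at 3820 CPM and the Mir290 cluster at 88.5 CPM, and per 1000000 of all reads they stood at 786 and 18.0. Without members that share 20 nt with another hairpin, the Mir302 cluster fell to 607 CPM and the cluster ratio to 19.4, since Mir302a and Mir302b are then left out. All 7 plus-strand genes gave 66.5 CPM for the Mir290 cluster. With at least 100 summed counts, 5 members were tested and 3 passed, beside 225 of all 301 genes tested. The log2 ratio of Mir302b turned from 0.22 to -0.062 with TMM and -0.012 with DESeq2 size factors, which move the ratios of all genes by 1 shift. Under both of these, and with the total without the 10 most abundant genes, 4 of 7 members passed, 1 higher in replicate 1 and 3 in replicate 2. Of all 444 genes tested, 178 passed with TMM, 187 with DESeq2 size factors and 184 with the total without the 10 most abundant genes. Leaving out a library gave 1594 to 1660 CPM for the Mir302 cluster, 25.4 to 52.0 CPM for the Mir290 cluster and 30.6 to 65.4 for their ratio. Either-strand counts changed no call among the members. The members had no opposite-strand counts, so their own counts were the same in this setting and it was a weak check of them. Depth limits Mir367, Mir290a and Mir295, whose summed counts were 2, 1 and 7.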
